A study of Homo sapiens with 6 samples.

Results

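C-to-U edits in long 3′ UTRs are described here, a 3′ UTR being the stretch of an mRNA between its stop codon and its poly(A) tail. A site was a member when its row named a protein-coding isoform of GENCODE v44, when it lay on that isoform's strand in an exon downstream of the last coding base, and when the spliced 3′ UTR was at least 1000 nt. Counted once for each position and strand, 276147 of the 635496 sites listed over all 6 libraries were members. They fell in 5046 isoforms of 4472 genes. These were part of the 5285 isoforms of 4634 genes that had a long 3′ UTR, among 8772 protein-coding isoforms with any listed edit. The median long 3′ UTR was 2430 nt, and the longest was that of SMAD2 with 32873 nt.

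All libraries came from HEK293T cells, a human embryonic kidney line that the labels also call HEK293XT, fixed in methanol on slides, and each was read as full-length cDNA on a long-read sequencer. RBFOX2-INSCRIBE samples (2 libraries) received a rabbit antibody against RBFOX2 and then Apo1-Nb, a fusion of the cytidine deaminase APOBEC1 with a nanobody that binds rabbit IgG. Enzyme-only samples (2 libraries, numbered 2 and 3 in their titles) received Apo1-Nb without the antibody, and buffer-only samples (2 libraries) received neither. The replicates were separate slides of a single cell line, so every p-value below measures only the spread between these slides.

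RBFOX2 is an RNA-binding protein best known as a regulator of alternative splicing, and it recognises the hexamer UGCAUG. In 3′ UTRs, RNA-binding proteins and microRNAs can set the stability, localisation and translation of an mRNA. APOBEC1 is known to prefer a C that follows an A or a U.

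On the transcript strand, UGCAUG occurred 5284 times in these 3′ UTRs, and 54.4% of the isoforms with a long 3′ UTR held it at least 1 time against 13.2% of those with a shorter 3′ UTR. Of these occurrences, 34.7% and 36.7% had an edited C within 50 nt in the RBFOX2-INSCRIBE libraries, where a C was within 50 nt if no base of the motif was farther than that from it. The shares were 13.0% and 21.1% in enzyme-only and 11.5% and 11.3% in buffer-only libraries. At 912 of the 5284 occurrences each RBFOX2-INSCRIBE library held more edited Cs than any of the 4 control libraries. The reverse, both enzyme-only libraries above the other 4 libraries, occurred at 11 occurrences, and both buffer-only libraries were above the other 4 at 9. RBFOX2-INSCRIBE libraries listed more sites over long 3′ UTRs as a whole, 104022 and 110609 against 26524 to 72389 in the controls. Both RBFOX2-INSCRIBE libraries were above both enzyme-only libraries in 49.9% of all isoform regions tested. The shares and counts at the motif are not adjusted for this, and no other hexamer was counted in this way.

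The following 8 occurrences, 1 for each gene, were chosen with part of the genome left out. Among the occurrences considered, they had the widest gap between the lower RBFOX2-INSCRIBE library and the highest control library. Their values are therefore a description without a test. They are shown because they give the sequence around the motif where this gap was wide, and they were not ranked by the share of Cs edited. Each line is 30 nt of the GENCODE v44 transcript, read 5′ to 3′ and written as RNA. Capitals mark UGCAUG and every C edited in both RBFOX2-INSCRIBE libraries. The edited Cs given for each below were counted over the wider window of all Cs within 50 nt of the motif, and the coordinates are those of the printed stretch.
RAB10: cuugCgucuccCUGCAUGcugcuuuauuug
TSC22D2: uCuagcaugaucUGCAUGaccuauaauCuu
PPM1B: uuaCaaauuuuaUGCAUGuauCuaCugCau
FEM1B: aucagauaauguUGCAUGuuuuaaaaaCaC
PPP2CA: gaaCcaguuCauUGCAUGcugaagcgacau
SPIN1: aCcauCCuuuuuUGCAUGcuCuauuCuaag
IREB2: auauCcucaauaUGCAUGuCugcccaucaC
TRIM33: aCuuggucaaaaUGCAUGuauagCauuuCu

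The RAB10 stretch (hg38, chr2:26135779-26135808, plus strand) encodes part of the 3′ UTR of a small GTPase of membrane traffic, and its motif began 773 nt after the coding sequence. Within 50 nt of that motif the RBFOX2-INSCRIBE libraries had 17 and 18 edited Cs of 37 Cs, the enzyme-only libraries 5 and 7, and the buffer-only libraries 0 and 4. RAB10 thus had control edits beside its RBFOX2-INSCRIBE edits, and its highest edit fraction, 1.01%, was in enzyme-only replicate 2. An edit fraction is the share of reads at a C that carried the edit.

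In TSC22D2 (hg38, chr3:150459663-150459692, plus strand), which codes for a leucine zipper protein of the TSC22 family, Cs within 50 nt of the motif numbered 22, of which 15 and 12 were edited in the RBFOX2-INSCRIBE libraries. There were 2 and 1 in enzyme-only and 0 in either buffer-only library. All 10 of the Cs edited in both RBFOX2-INSCRIBE libraries there were unedited in the 4 controls.

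PPM1B (hg38, chr2:44232976-44233005, plus strand) encodes a metal-dependent protein phosphatase. Of 18 Cs within 50 nt of its motif, 14 and 11 were edited with the antibody, 0 and 1 with the enzyme alone and 0 in both buffer-only libraries. The highest edit fraction among these Cs was 6.53% and 6.30% in the RBFOX2-INSCRIBE libraries and 0.538% in enzyme-only replicate 3.

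FEM1B (chr15:68293339-68293368, plus strand), a substrate adaptor of a ubiquitin ligase, had 11 and 12 edited Cs with the antibody and 1 or 2 in each control library. PPP2CA (chr5:134197552-134197581, minus strand), the catalytic subunit of protein phosphatase 2A, had 14 and 14, against 3 and 5 in enzyme-only and 2 and 6 in buffer-only libraries. SPIN1 (chr9:88477904-88477933, plus strand), a reader of histone methylation, had 12 and 13 against 0 to 4 in the controls. Control edits at PPP2CA and SPIN1 stayed below both RBFOX2-INSCRIBE libraries, which follows from the choice by widest gap.

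IREB2 (chr15:78499260-78499289, plus strand), an iron-sensing RNA-binding protein, had 11 and 11 edited Cs of 18, with 0 to 3 in the controls. TRIM33 (chr1:114393632-114393661, minus strand), a ubiquitin ligase of the TGF-beta pathway, had 11 and 11 of 17, also with 0 to 3 in the controls. Its motif lay 4002 nt into a 3′ UTR of 4861 nt, the farthest from the coding sequence among the 8.

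**Figure D1:**
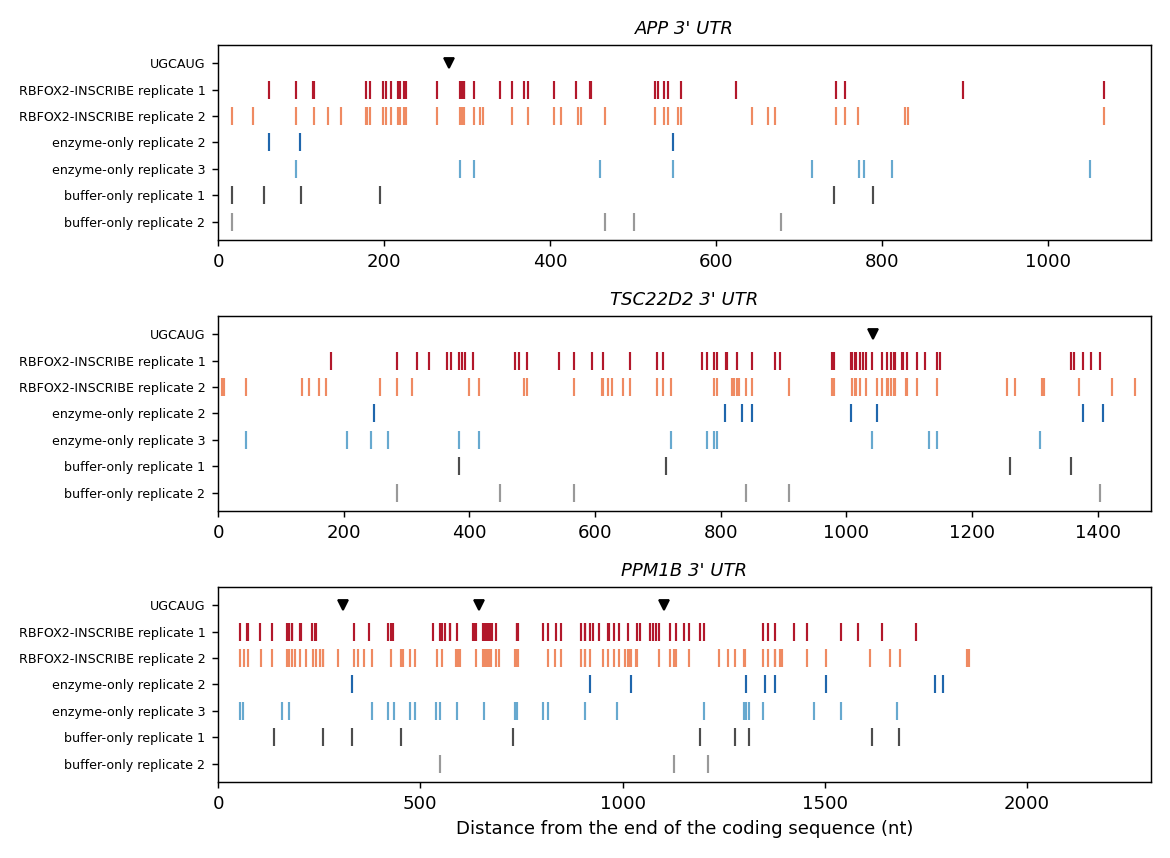
Edited Cs of 1 isoform each of APP, TSC22D2 and PPM1B by distance from the end of the coding sequence (nt); each tick is an edited C, each row a library, and black triangles mark UGCAUG. The ticks of both RBFOX2-INSCRIBE libraries crowd beside the TSC22D2 motif at 1042 nt and the PPM1B motif at 646 nt, where the controls have few.

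Across all members, long 3′ UTRs held the most edits where the antibody had been present. RBFOX2-INSCRIBE libraries had 104022 and 110609 distinct sites, enzyme-only replicates 2 and 3 had 34990 and 72389, and buffer-only libraries had 27207 and 26524. The groups did not overlap, and the enzyme-only libraries differed from each other far more than the replicates of either other group.

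The RBFOX2-INSCRIBE mean was 2.00 times the enzyme-only mean and 3.99 times the buffer-only mean. The first ratio became 1.48 when enzyme-only replicate 2 was left out, and 3.07 when enzyme-only replicate 3 was. The enzyme-only mean was 2.00 times the buffer-only mean, or 2.69 and 1.30 without replicates 2 and 3 respectively. A two-sided exact permutation test of 2 against 2 libraries cannot go below p = 0.33, which is the value for each of these 3 comparisons and for every comparison of groups that did not overlap below.

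The number of reads behind each site is unknown, since the files give fractions alone, so a larger count of sites can reflect more reads as well as more editing, and these cannot be told apart from the count. Edits on the strand opposite to the transcript were set beside it. Long 3′ UTRs held 2656 and 2640 pairs of isoform and position of that kind in RBFOX2-INSCRIBE, 1364 and 2340 in enzyme-only and 2380 and 2370 in buffer-only libraries. Per opposite-strand pair there were 39.6 and 42.4 transcript-strand pairs in RBFOX2-INSCRIBE, 25.7 and 31.1 in enzyme-only, and 11.5 and 11.2 in buffer-only libraries. The order of the groups was the same on this scale, with a ratio of 1.44 between RBFOX2-INSCRIBE and enzyme-only means.

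Members made up 54.1% and 56.2% of the edited Cs of protein-coding isoforms in RBFOX2-INSCRIBE, 42.5% and 49.3% in enzyme-only, and 39.2% and 38.9% in buffer-only libraries. Coding sequence showed the opposite order, with 35.8% and 34.8%, then 44.3% and 40.8%, then 49.1% and 49.4%. The share of long 3′ UTRs was thus highest with the antibody and lowest without enzyme, and neither ordering had overlapping groups. Shorter 3′ UTRs held between 5.79% and 8.67% in every library.

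**Figure D2:**
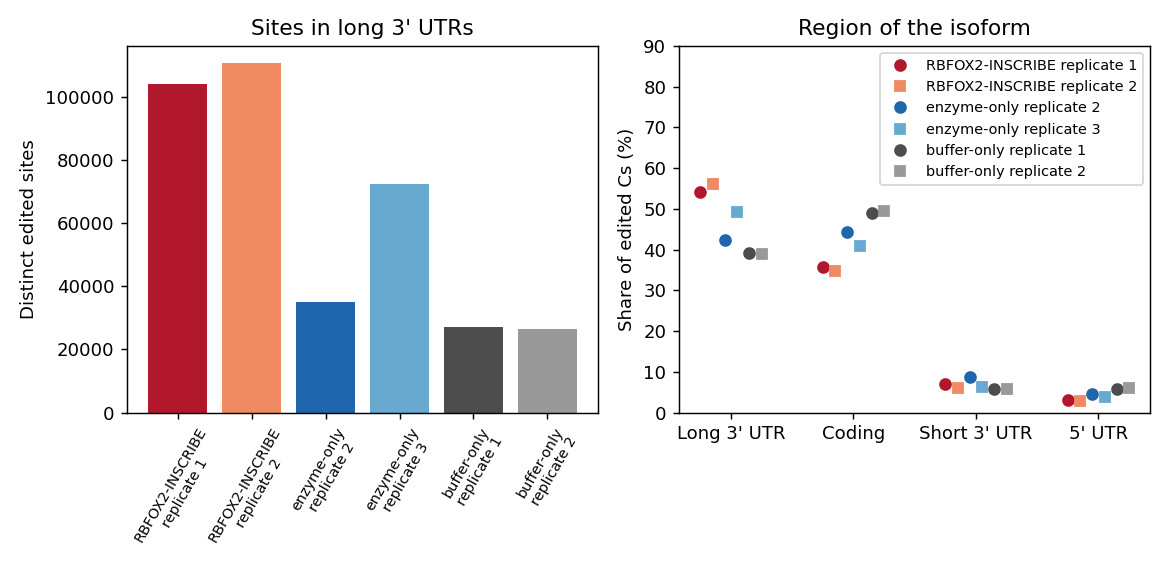
Left, distinct edited sites in long 3′ UTRs in each library; right, share of the edited Cs of protein-coding isoforms (%) that lay in each region, 1 point for each library. The RBFOX2-INSCRIBE points lie above the control points in long 3′ UTRs and below them in coding sequence.

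The same sites rarely recurred. RBFOX2-INSCRIBE libraries shared 32147 sites, 30.9% of the first library's members and 29.1% of the second's. Enzyme-only libraries shared 5069, which was 14.5% and 7.0%, and buffer-only libraries shared 2373, which was 8.72% and 8.95%. Each control library shared more of its sites with either RBFOX2-INSCRIBE library than with its own replicate. These shares were 23.6% and 24.4% for enzyme-only replicate 2 and 26.7% and 28.2% for replicate 3. They were 19.6% and 19.9% for buffer-only replicate 1 and 20.4% and 20.9% for replicate 2. None of these overlaps was adjusted for the number of sites in a library. Of all members, 73.5% were seen in a single library. Of all sites, 0 were common to the 4 libraries of RBFOX2-INSCRIBE and enzyme-only, and the study's methods state that edits present in every sample had been removed, so the overlaps count only what that filter left.

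The edit fractions of members were low. The median was 0.685% and 0.647% in RBFOX2-INSCRIBE, 0.901% and 0.613% in enzyme-only and 0.493% in both buffer-only libraries. Enzyme-only replicate 2 had the fewest members and the highest median, and RBFOX2-INSCRIBE lay between the enzyme-only values. A fraction of at least 2% was reached by 19.5% and 18.2% of RBFOX2-INSCRIBE members, 25.7% and 17.6% of enzyme-only members, and 16.3% and 16.9% of buffer-only members. RBFOX2-INSCRIBE and enzyme-only overlapped in both measures (two-sided exact permutation p = 1).

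Density was measured as editsC, the share of the Cs of a region that were edited. Over all 3245981 Cs of long 3′ UTRs it was 3.24% and 3.45% in RBFOX2-INSCRIBE, 1.08% and 2.24% in enzyme-only, and 0.840% and 0.819% in buffer-only libraries. In the coding sequence of the same isoforms it was 1.85% and 1.94%, then 0.845% and 1.61%, then 0.884% and 0.867%. The ratio of 3′ UTR to coding density was therefore 1.75 and 1.78 with the antibody, 1.28 and 1.39 with the enzyme alone, and 0.951 and 0.945 with buffer. Only the buffer-only libraries had a lower density in the long 3′ UTR than in the coding sequence.

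The ratio was repeated over Cs preceded by A or U, the context that APOBEC1 is known to prefer. It was 1.89 and 1.90 in RBFOX2-INSCRIBE, 1.40 and 1.47 in enzyme-only and 0.996 and 0.982 in buffer-only libraries. The groups kept their order and did not overlap. Among Cs preceded by G, the ratio was 1.114 and 1.126 in RBFOX2-INSCRIBE, 0.927 and 1.010 in enzyme-only and 0.895 and 0.889 in buffer-only libraries, a narrower range.

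Within isoforms, the median log2 difference between 3′ UTR and coding editsC over 1270 isoforms with a long 3′ UTR was 0.47 and 0.50 in RBFOX2-INSCRIBE libraries. It was 0.09 and 0.22 in enzyme-only and -0.34 and -0.36 in buffer-only libraries. With only 3′ UTRs of at least 2000 nt kept, the medians fell to 0.13 and 0.05 in RBFOX2-INSCRIBE libraries. In enzyme-only libraries they changed sign, to -0.38 and -0.35, and in buffer-only libraries they were -0.75 and -0.81. For 428 isoforms whose 3′ UTR was not long the medians were 0.81 and 0.80, 0.49 and 0.40, and 0.03 and 0.04. The medians of long 3′ UTRs were the lower in every library. That gap between long and shorter 3′ UTRs averaged -0.32 ± 0.03 (SD, n = 2) in RBFOX2-INSCRIBE and -0.29 ± 0.16 in enzyme-only libraries, which overlapped (two-sided exact permutation p = 1).

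The bases before the edited C separated the groups. In RBFOX2-INSCRIBE, 81.1% and 81.9% of the edited Cs of long 3′ UTRs followed an A or a U, against 71.7% and 76.9% in enzyme-only and 48.0% and 48.3% in buffer-only libraries. Among all Cs of these 3′ UTRs the share was 53.0%. Both groups that received Apo1-Nb thus lay above the Cs available and buffer-only libraries below them. A preceding A was found at 43.5% and 44.2% of RBFOX2-INSCRIBE sites, 37.4% and 40.9% of enzyme-only sites and 20.3% and 20.8% of buffer-only sites, where 24.1% of Cs had it.

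A preceding G showed the reverse, at 11.96% and 11.39% of RBFOX2-INSCRIBE, 17.1% and 14.4% of enzyme-only and 30.9% and 30.7% of buffer-only sites, against 21.4% of Cs. After the edited C, a U stood at 45.8% and 45.6% of RBFOX2-INSCRIBE, 44.4% and 45.2% of enzyme-only and 40.8% and 41.6% of buffer-only sites, against 35.8% of Cs. The base after the C thus varied less between the groups than the base before it.

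The A and U content of the whole 3′ UTR went with density in every library. From the quartile of isoforms with the lowest content (up to 55.4% A and U) to the highest (65.8% to 74.4%), editsC went from 1.08% to 7.01% in RBFOX2-INSCRIBE replicate 1 and from 1.07% to 7.51% in replicate 2. It went from 0.558% to 1.93% in enzyme-only replicate 2, from 0.888% to 4.45% in replicate 3, from 0.521% to 1.24% in buffer-only replicate 1 and from 0.493% to 1.202% in replicate 2. The rise was largest in the RBFOX2-INSCRIBE libraries.

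The ratio of the highest to the lowest quartile averaged 6.75 ± 0.37 (SD, n = 2) in RBFOX2-INSCRIBE, 4.24 ± 1.10 in enzyme-only and 2.41 ± 0.04 in buffer-only libraries, and the groups did not overlap. The ratio between the RBFOX2-INSCRIBE and enzyme-only densities accordingly went from 1.49 in the lowest quartile through 1.87 and 2.06 to 2.27 in the highest. That between RBFOX2-INSCRIBE and buffer-only went from 2.12 to 5.94.

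Longer 3′ UTRs had a lower density. In RBFOX2-INSCRIBE libraries editsC was 4.97% and 4.95% for 3′ UTRs of 1000 nt to under 1500 nt and 1.90% and 2.11% for those of 5000 nt or more. In enzyme-only libraries it was 1.797% and 3.38% against 0.660% and 1.40%, and in buffer-only libraries 1.35% and 1.33% against 0.511% and 0.503%. The ratio of the RBFOX2-INSCRIBE to the enzyme-only density stayed between 1.92 and 2.10 over the 5 length classes.

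Sites also thinned out towards the end of the transcript. Each 3′ UTR was divided into 10 bins of equal length. In bin 1, next to the coding sequence, editsC was 4.41% and 4.65% in RBFOX2-INSCRIBE, 1.58% and 3.08% in enzyme-only, and 1.22% and 1.16% in buffer-only libraries. In bin 10 it was 2.60% and 2.68%, 0.910% and 1.68%, and 0.599% and 0.580%. The decline was present in all 6 libraries.

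The last 2 bins together had 0.632 and 0.607 of the density of the first 2 in RBFOX2-INSCRIBE and 0.632 and 0.608 in enzyme-only libraries, which overlapped (two-sided exact permutation p = 0.67). In buffer-only libraries the ratio was 0.560 and 0.581, below both other groups. Over the 10 bins the RBFOX2-INSCRIBE to enzyme-only ratio ranged from 1.94 to 2.08. It was lowest, at 1.76, in the first 100 nt after the coding sequence and 2.12 in the last 100 nt of the transcript.

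**Figure D3:**
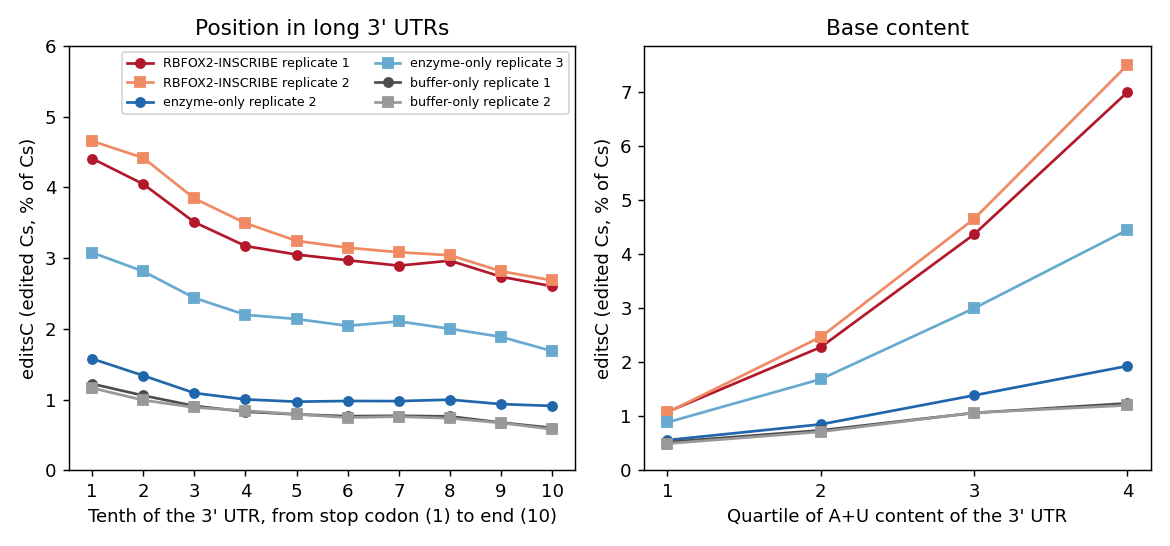
Left, editsC (edited Cs as % of Cs) in 10 bins of long 3′ UTRs from the stop codon to the transcript end; right, editsC in quartiles of isoforms by the A and U content of the 3′ UTR; each line is a library. All lines fall from left to right in the left panel, and in the right panel the RBFOX2-INSCRIBE lines climb from about 1.08% to 7.01% and 7.51%.

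The question of whether edits gathered at the RBFOX2 motif was addressed by comparing edited Cs with all Cs of the same 3′ UTR. In each 3′ UTR the number of edits expected within 50 nt of UGCAUG, counted as above, was its number of edited Cs times the share of its Cs that lay there. RBFOX2-INSCRIBE replicate 1 had 5479 edited Cs near the motif where 3493 were expected, and replicate 2 had 6004 where 3703 were expected, ratios of 1.57 and 1.62. Enzyme-only replicates 2 and 3 had 1015 and 2166 where 1042 and 2190 were expected, ratios of 0.974 and 0.989. Buffer-only libraries had 836 and 808 where 826 and 799 were expected.

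The excess was thus seen in both RBFOX2-INSCRIBE libraries and in no control library. The group means were 1.60 ± 0.04 (SD, n = 2) in RBFOX2-INSCRIBE and 0.981 ± 0.011 in enzyme-only libraries, a difference of 0.61. When the expected share was computed separately for each preceding base, the ratios were 1.60 and 1.66 in RBFOX2-INSCRIBE and 0.979 and 1.008 in enzyme-only libraries. Among all 4096 hexamers examined in the same way, UGCAUG had rank 1 in each RBFOX2-INSCRIBE library and ranks 2073 and 1840 in the enzyme-only libraries. The hexamer GCAUGU, which overlaps it by GCAUG, had ranks 3 and 4 in RBFOX2-INSCRIBE. Hexamers made of A and U alone were also near the top, and there the enzyme alone gave high ratios too, as in UAUAUU with 1.42 and 1.40 in RBFOX2-INSCRIBE and 1.25 and 1.27 in enzyme-only libraries.

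The excess was larger in long 3′ UTRs than in coding sequence or shorter 3′ UTRs, the other regions examined. The ratio was 1.41 and 1.39 in coding sequence and 1.24 and 1.25 in shorter 3′ UTRs of the RBFOX2-INSCRIBE libraries. The difference of long 3′ UTRs from coding sequence averaged 0.19 ± 0.05 (SD, n = 2) in RBFOX2-INSCRIBE and -0.04 ± 0.02 in enzyme-only libraries, without overlap. That from shorter 3′ UTRs averaged 0.35 ± 0.04 and -0.02 ± 0.04, also without overlap. The background was all Cs of the same region, and in a shorter 3′ UTR fewer of them can lie far from a motif. Whether this lowered the ratio there was not tested.

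The excess fell with distance on both sides of the motif. Cs 1 to 25 nt downstream had ratios of 1.93 and 2.03 in the RBFOX2-INSCRIBE libraries, and Cs 1 to 25 nt upstream 1.59 and 1.63. At 51 to 75 nt downstream the ratios were 1.36 and 1.30, at 101 to 150 nt 1.129 and 1.106, and at 201 to 300 nt 1.005 and 1.006. The downstream side was thus the higher next to the motif, in both libraries. Enzyme-only ratios at 1 to 25 nt were 0.955 and 0.995 downstream and 0.963 and 1.09 upstream.

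The single C inside UGCAUG went the other way. It was edited at 121 and 124 of the 5284 occurrences in RBFOX2-INSCRIBE, ratios of 0.561 and 0.541 to the other Cs of the same 3′ UTRs. In enzyme-only libraries it was edited at 51 and 75 (0.817 and 0.560) and in buffer-only libraries at 83 and 70 (1.72 and 1.49). This C follows a G, the base that was rarer before edited Cs than before all Cs in both groups that received Apo1-Nb. In RBFOX2-INSCRIBE, editsC was 1.81% and 1.83% over all Cs of long 3′ UTRs that follow a G. It was 2.29% and 2.35% for the C in the motif. Whether the low ratio is particular to the motif or goes with the preceding G was not tested.

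**Figure D4:**
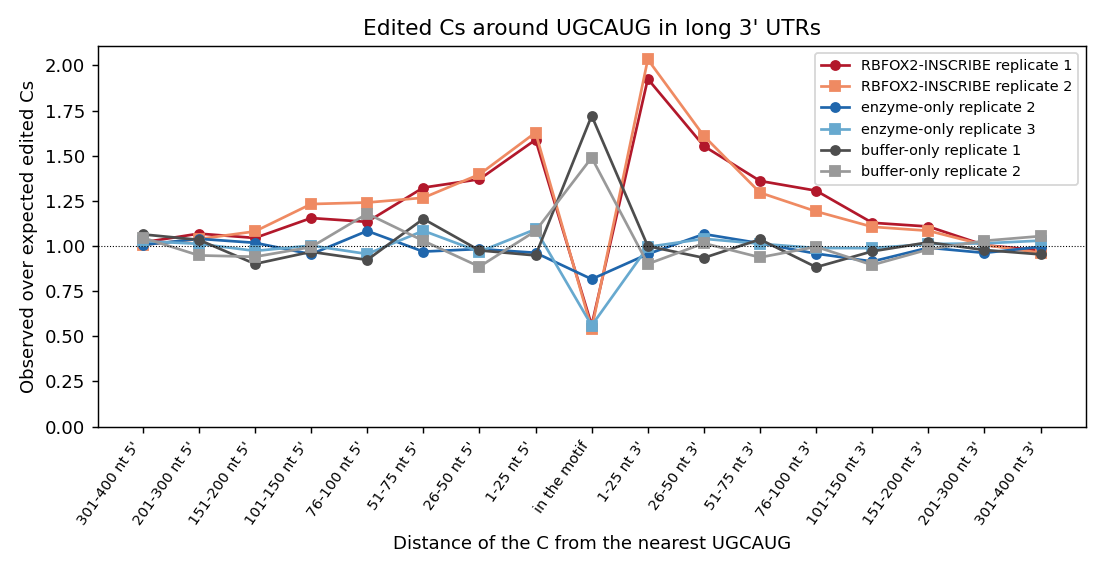
Observed over expected edited Cs by distance of the C from the nearest UGCAUG in long 3′ UTRs, 1 line for each library; the dotted line marks 1. Both RBFOX2-INSCRIBE lines peak at 1.93 and 2.03 in the 25 nt downstream of the motif and dip to 0.561 and 0.541 inside it, while control lines stay near 1 outside the motif.

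Sites with a higher edit fraction were more often near the motif. In RBFOX2-INSCRIBE the ratio of observed to expected was 1.14 and 1.16 for sites below 0.5%, 1.61 and 1.63 from 0.5% to 1%, 1.81 and 1.83 from 1% to 2%, 2.05 and 2.43 from 2% to 5%, and 2.36 and 2.55 for sites of at least 5%. Enzyme-only ratios ranged from 0.901 to 1.17 over the same classes and buffer-only ratios from 0.723 to 1.18. A rise through all 5 classes was thus seen in both RBFOX2-INSCRIBE libraries and in none of the 4 controls. Sites found in both RBFOX2-INSCRIBE libraries and in no other library numbered 16869, and their ratio was 2.56 and 2.58. The 1874 sites found only in both enzyme-only libraries had 0.647 and 0.648, and the 688 found only in both buffer-only libraries 0.860 and 0.853. These sites were chosen by the libraries that listed them, so their ratios are a description without a test.

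**Figure D5:**
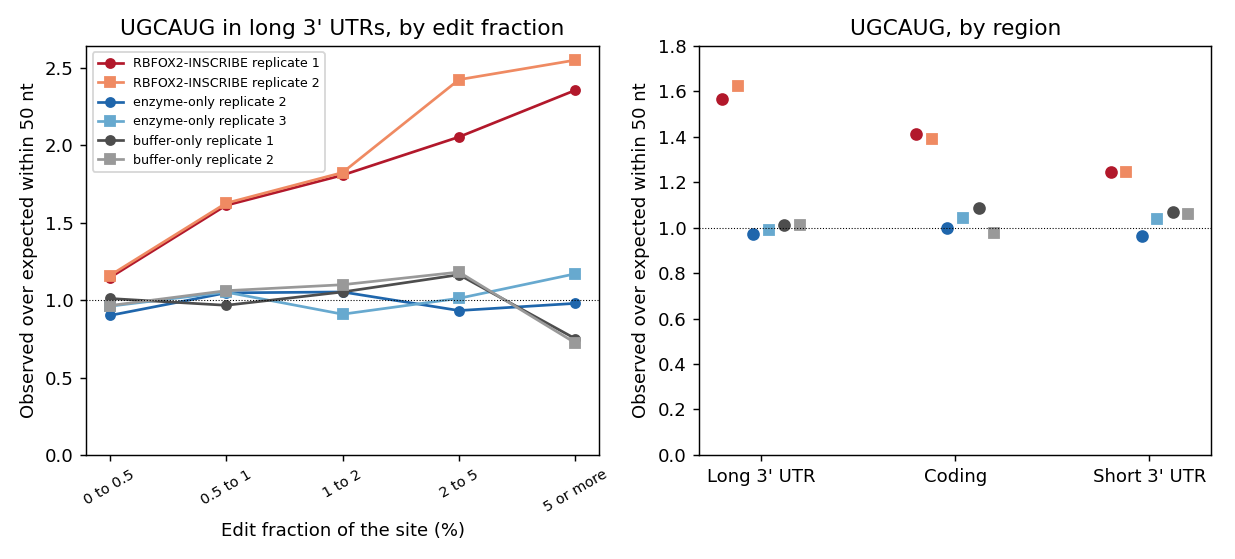
Observed over expected edited Cs within 50 nt of UGCAUG, left by edit fraction of the site (%) in long 3′ UTRs and right by region of the isoform, 1 line or point for each library. RBFOX2-INSCRIBE climbs from 1.14 and 1.16 to 2.36 and 2.55 with edit fraction, and lies at 1.57 and 1.62 in long 3′ UTRs, above its values in coding sequence and shorter 3′ UTRs.

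Elements bound by other 3′ UTR factors were examined in the same way. AUUUA, the core of AU-rich elements, had ratios of 1.215 and 1.1975 in RBFOX2-INSCRIBE, 1.132 and 1.142 in enzyme-only and 0.996 and 0.982 in buffer-only libraries. UGUANAUA, the site of Pumilio proteins, had 1.31 and 1.34, 1.27 and 1.31, and 1.04 and 1.08. Both elements were therefore above 1 with the enzyme alone, where the RBFOX motif was not. The polyadenylation signal AAUAAA lay between 0.972 and 1.05 in all 6 libraries, and the secondary RBFOX motif GCACG had 0.807 and 0.834 in RBFOX2-INSCRIBE and 0.891 and 0.861 in enzyme-only libraries.

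Isoforms with more motifs differed more between the groups. The ratio of RBFOX2-INSCRIBE to enzyme-only editsC was 1.82 for 2409 isoforms with 0 UGCAUG, 2.06 for 1521 isoforms with 1, 2.21 for 790 isoforms with 2, and 2.20 for 565 isoforms with 3 or more. This comparison is a description, because motif number also goes with length.

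Single 3′ UTRs were compared with limma on log2 editsC, fitted over every isoform region of the table that averaged 5 or more edited Cs in the libraries compared, and adjusted by the Benjamini-Hochberg method over all of them. Of the 5285 long 3′ UTRs, 2953 entered the comparison of RBFOX2-INSCRIBE with enzyme-only. Their median log2 difference was 1.14, against 0.88 over all 7141 regions tested, 0.86 over shorter 3′ UTRs and 0.66 over coding sequences. In 1873 of the long 3′ UTRs (63.4%) the lower RBFOX2-INSCRIBE library exceeded the higher enzyme-only library. The share was 49.9% of all regions and 48.3% of shorter 3′ UTRs. In 36 long 3′ UTRs the order was fully reversed.

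At an adjusted p below 0.05, 2 long 3′ UTRs passed in that comparison, both higher with the antibody. Among all regions 0.084% passed, and 3 of 613 shorter 3′ UTRs did. At an unadjusted p below 0.05 (limma) there were 686 long 3′ UTRs (23.2%), of which 685 were higher, against 26.1% of shorter 3′ UTRs. With edited Cs scaled to the same total in every library, the median over all regions moved from 0.88 to 0.04 and that of long 3′ UTRs from 1.14 to 0.29, and 0 passed (limma; 192 at an unadjusted p below 0.05). Both calls were also absent when any 1 of the 4 libraries was left out.

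SGMS1, a sphingomyelin synthase of the Golgi, was the first of the 2, with a 3′ UTR of 1545 nt at chr10:50305600-50307144. Its 229 Cs held 19 and 27 edits in RBFOX2-INSCRIBE, 0 and 1 in enzyme-only and 3 and 3 in buffer-only libraries. All controls lay far below both RBFOX2-INSCRIBE libraries, and the fitted log2 difference from enzyme-only was 4.74 ± 0.83 (SE; limma adjusted p = 0.027).

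NR2C2, an orphan nuclear receptor, had 53 and 72 edits in a 3′ UTR of 6268 nt (chr3:15043006-15049273), none in either enzyme-only library and 16 and 12 in buffer-only libraries (limma adjusted p = 0.0423). A group listed at 0 gives no fold. Enzyme-only libraries listed 0 edits in any region of this gene, so the absence was not particular to its 3′ UTR.

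The next genes described from that ranking did not pass. TES, a focal adhesion protein, had 28 and 29 edited Cs against 0 and 3 in enzyme-only and 7 and 3 in buffer-only libraries (limma adjusted p = 0.0768). TRAPPC6B, a subunit of a trafficking complex, had 32 and 25 against 0 and 3 and then 4 and 2, and its 3′ UTR held 4 UGCAUG. PAXBP1, a partner of PAX transcription factors, had 12 and 12 against 0 and 1 and then 0 and 2.

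ABI1, a component of the WAVE actin complex, had 8 and 24 edits, 0 in either enzyme-only library and 0 and 1 in buffer-only libraries. MEIOC, a meiosis factor, had 10 and 14, 0 in either enzyme-only library and 1 and 2 with buffer. These 5 had an adjusted p between 0.0633 and 0.0783 (limma). They were picked from 3′ UTRs without overlap between RBFOX2-INSCRIBE and enzyme-only counts, so their separation was set by the choice and is no further evidence.

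In the other direction 0 long 3′ UTRs passed (limma; 1 at an unadjusted p below 0.05). H2AX, the histone variant of DNA damage signalling, had 5 and 7 edited Cs in RBFOX2-INSCRIBE, 22 and 17 in enzyme-only and 12 and 9 in buffer-only libraries, a log2 difference of -1.63 ± 0.74 (SE; limma adjusted p = 0.297). ZBTB25, a zinc finger protein, was listed at 0 in both RBFOX2-INSCRIBE libraries and had 5 and 17 in enzyme-only and 1 and 1 in buffer-only libraries. BOD1, a protein of chromosome biorientation, had 3 and 4 against 12 and 9, and BCL9, a Wnt coactivator, had 2 and 6 against 8 and 15. None of these 4 3′ UTRs held a UGCAUG. Those of ABI1 and MEIOC, described above as higher, held none either, and 54.4% of isoforms with a long 3′ UTR held at least 1.

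APP, DEPDC1 and DCUN1D4, which the study itself had singled out in these cells and which are therefore no independent evidence, had long 3′ UTRs. APP, the amyloid precursor protein, had 3 listed isoforms with the same 3′ UTR of 1123 nt (chr21:25880550-25881672), so their sites share a sequence. The isoform ENST00000346798 had 37 and 44 of 198 Cs edited in RBFOX2-INSCRIBE, 3 and 10 in enzyme-only and 6 and 4 in buffer-only libraries. The difference from enzyme-only was 2.75 ± 0.69 (log2, SE; limma adjusted p = 0.133) and that from buffer-only 2.92 ± 0.32 (limma adjusted p = 0.00336). Its motif lay 278 nt after the coding sequence.

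More edits were listed for ENST00000357903, with 46 and 49, then 6 and 30, then 3 and 6, and there the enzyme-only libraries differed widely. The remaining APP isoform, ENST00000348990, had 2 and 11, 0 in either enzyme-only library and 0 and 3 with buffer, too few to enter the fit. DEPDC1, a protein of mitosis, had 57 and 43 edited Cs in ENST00000370966, with 9 and 23 in enzyme-only and 4 and 3 in buffer-only libraries. DCUN1D4, a regulator of cullin neddylation, had 34 and 26 in ENST00000334635, with 0 and 6 and then 1 and 2, and its 3′ UTR held 0 UGCAUG. In a further isoform of each with the same 3′ UTR the RBFOX2-INSCRIBE libraries differed widely. ENST00000456315 of DEPDC1 had 24 and 68, then 3 and 16, then 2 and 3. ENST00000381441 of DCUN1D4 had 25 and 7, then 2 and 4, then 2 and 2. Apart from ENST00000348990, each of these had more edits in both RBFOX2-INSCRIBE libraries than in any control, and none passed against enzyme-only.

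The most edited long 3′ UTRs changed less. IRS4, an insulin receptor substrate, had 442 and 567 edited Cs of 2249 in RBFOX2-INSCRIBE, 218 and 513 in enzyme-only and 261 and 264 in buffer-only libraries, so RBFOX2-INSCRIBE and enzyme-only overlapped. NUCKS1, a chromatin protein, had 285 and 320, then 113 and 259, then 149 and 182. MIB1, a ubiquitin ligase of Notch signalling, had 257 and 257, then 95 and 203, then 57 and 49. KCTD12, a partner of GABA-B receptors, had 255 and 242, then 79 and 198, then 75 and 95, and EIF1AX, a translation initiation factor, had 228 and 259, then 79 and 173, then 41 and 52. Enzyme-only replicate 3 approached the RBFOX2-INSCRIBE values in each, and the log2 differences from enzyme-only lay between 0.58 and 1.05.

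Against buffer-only libraries, which share the RBFOX2-INSCRIBE samples with the comparison above, 2753 long 3′ UTRs were tested. The median log2 difference was 2.15, against 1.60 over all regions, 2.03 over shorter 3′ UTRs and 1.11 over coding sequences. At an adjusted p below 0.05, 2013 were higher and 2 lower, which is 73.2% of long 3′ UTRs tested. The share called was 71.4% of shorter 3′ UTRs and 56.2% of all regions. Scaled to the same total, the median of all regions moved to 0.02 and that of long 3′ UTRs to 0.64, and 0 passed. Leaving out RBFOX2-INSCRIBE replicate 1 or 2 left 290 or 276 calls, and leaving out buffer-only replicate 1 or 2 left 0.

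The 2 lower calls were HMGB1, a chromatin protein, and SLC5A3, a myo-inositol transporter. In isoform ENST00000339872 of HMGB1 all 4 libraries that received Apo1-Nb were listed at 0, where buffer-only libraries had 13 and 16 edited Cs. SLC5A3 was listed at 0 in 3 of the libraries with Apo1-Nb and had 134 in enzyme-only replicate 3 and 44 and 43 in buffer-only libraries. In these isoforms libraries were thus at 0 or well above it, and no fold is given.

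Between enzyme-only and buffer-only libraries, 2035 long 3′ UTRs were tested with a median log2 difference of 0.98. It was 0.69 over all regions and 0.94 over shorter 3′ UTRs. At an adjusted p below 0.05, 29 were higher and 2 lower (1.52%), where 1.45% of all regions and 7.32% of shorter 3′ UTRs passed. The lower ones were HMGB1 and NR2C2, both listed at 0 in enzyme-only. Leaving out any of the 4 libraries left 0 calls.

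The difference between 3′ UTR and coding editsC was then compared within isoforms. How far it is free of read depth was not tested, since the files hold no read numbers. In 1479 isoforms with a long 3′ UTR the median change of this difference from enzyme-only to RBFOX2-INSCRIBE was 0.34 (log2), the same to 2 decimals as over all isoforms, and it was positive in 68.6%. At an adjusted p below 0.05, 0 passed among them and 0% of all 2003 isoforms passed (limma; 125 long 3′ UTRs at an unadjusted p below 0.05, mostly higher). The smallest adjusted p was 0.59.

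The 5 isoforms described in each direction had the smallest limma p among those whose libraries did not overlap, and were not chosen by the size of the change. Among the rises CAP2, an actin regulator, had 26 and 14 edited Cs in the 3′ UTR and 8 and 1 in the coding sequence in RBFOX2-INSCRIBE. In enzyme-only libraries it had 1 and 3 in the 3′ UTR and 4 and 8 in the coding sequence. ZNF24, a zinc finger protein whose 3′ UTR held 5 UGCAUG, had 13 and 11 against 2 and 2 in the 3′ UTR and 11 and 7 against 14 and 21 in the coding sequence. IRF2BP2, a transcriptional corepressor, had 14 and 17 against 2 and 3 in the 3′ UTR and 5 and 6 against 4 and 5 in the coding sequence. HNRNPUL2 and PAXBP1 completed the set of 5, with changes of 2.46 and 3.11 (log2). In CAP2 and ZNF24 the coding sequence had more edits in enzyme-only replicate 3 than in RBFOX2-INSCRIBE replicate 2.

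In the other direction NCBP1, the large subunit of the nuclear cap-binding complex, had 20 and 28 against 18 and 35 in the 3′ UTR and 33 and 35 against 8 and 13 in the coding sequence. WSB1, a ubiquitin ligase adaptor, had 4 and 9 against 6 and 9 in the 3′ UTR and 5 and 15 against 2 and 2 in the coding sequence. MKLN1, LRP11 and WDR12 made up the rest, with changes of -2.41, -1.76 and -1.71 (log2). In NCBP1 and WSB1 the 3′ UTR counts of the groups overlapped while the coding counts did not.

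Genes of 4 functional lists were then read for their own long 3′ UTRs. Against enzyme-only 0 members passed in any list (limma; 2, 2, 8 and 6 at an unadjusted p below 0.05 in the order below). The numbers that passed as higher against buffer-only (limma adjusted p below 0.05) are read against 2013 of the 2753 long 3′ UTRs tested. Over all regions 56.1% did so.

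In 3′ end processing, the machinery of cleavage and polyadenylation, 12 of 20 genes had a long 3′ UTR and 9 isoforms were tested against enzyme-only, with a median log2 difference of 1.19. In 6 of them the groups separated fully, with RBFOX2-INSCRIBE the higher. Against buffer-only 7 of 8 passed as higher. NUDT21, the small subunit of cleavage factor I, had 183 and 155 edited Cs, then 47 and 99, then 34 and 22. PCF11, a termination factor, had 28 and 32, then 8 and 5, then 7 and 7, whereas PAPOLA, the poly(A) polymerase, had 135 and 149, then 46 and 131, then 51 and 45.

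In miRNA silencing and deadenylation, 17 of 31 genes had a long 3′ UTR, the groups separated in that way in 10 of 13 isoforms tested, and the median was 1.03. Against buffer-only 8 of 13 passed as higher. DICER1, which cuts microRNA precursors, had 98 and 142 edited Cs, then 25 and 74, then 27 and 16. AGO2, the slicing Argonaute, had 100 and 131, then 52 and 79, then 22 and 28, and CNOT6L, a deadenylase, had 52 and 61, then 20 and 32, then 10 and 9. AGO3 showed no separation, with 26 and 6, then 11 and 18, then 5 and 14.

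In the list of 3′ UTR binding regulators, 24 of 29 genes had a long 3′ UTR and 14 of 22 isoforms tested separated in that way, with a median of 1.30. Against buffer-only 12 of 21 passed as higher. QKI, a STAR-family RNA-binding protein whose 3′ UTR of 7885 nt held 7 UGCAUG, had 67 and 75 edited Cs, then 22 and 30, then 7 and 9. LIN28B, which blocks let-7 maturation, had 120 and 128, then 36 and 67, then 20 and 16, and ELAVL1, a binder of AU-rich elements, had 134 and 128, then 37 and 79, then 50 and 42. KHSRP, which promotes decay, had 47 and 40, then 34 and 38, then 32 and 20, a narrow gap.

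In the list of RBFOX and other splicing regulators, 18 of 30 genes had a long 3′ UTR and 13 of 20 isoforms tested separated in that way, with a median of 1.11. The isoforms tested came from 13 genes, and none was of an RBFOX, MBNL or NOVA gene. Several isoforms of HNRNPK, HNRNPU, SRSF1, SRSF7 and PTBP1 share sequence there. Against buffer-only 17 of 20 passed as higher. SRSF7, an SR splicing factor, had 63 and 50 edited Cs in its most edited isoform, then 25 and 23, then 4 and 8. HNRNPC, a binder of U tracts, had 81 and 96, then 21 and 50, then 24 and 23, and SRSF11 had 67 and 89, then 29 and 56, then 16 and 21. HNRNPA1 did not separate, with 53 and 35, then 22 and 37, then 20 and 17. The shares of isoforms that separated so in the 4 lists, 66.7%, 76.9%, 63.6% and 65.0%, stand beside the 63.4% of all long 3′ UTRs tested.

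HEK293 markers fixed for the check of cell identity were seen only in part. Edited isoforms were listed for VIM in 5 libraries and for NEFL and NEFM in all 6, and none for PAX2 or SALL2. None were listed for PTPRC, ALB, CDH5 or DES, markers of blood, liver, endothelium and muscle. A gene without a listed edit may still be expressed.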

How the data were processed

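Per-library edit tables of 6 HEK293T libraries were used; the deposited value is a fraction, the share of reads at a C that carried the edit, and no read number, so depth is unknown. Per the study's methods, the authors sequenced each library on 1 SMRT Cell, aligned full-length reads to hg38 with pbmm2, kept reads that IsoQuant assigned uniquely to an isoform, called C-to-U edits per isoform, and removed known variants and edits found across all samples. Longer or deeper isoforms can list more sites under such calling.

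Each row was placed on its GENCODE v44 transcript. Between 99.7% and 99.8% of rows named a known transcript and 91.7% to 96.6% lay on its strand; 427 rows on another chromosome than the transcript were left out. The GTF puts the stop codon outside the CDS, so positions counted from the last CDS base include it. Every transcript-strand exonic site was a C.

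Testing used limma 3.58.1 in R 4.3.3 (trend and robust) on log2((edited Cs + 0.5) / Cs) for each region of an isoform, and two-sided exact permutation tests from scipy over libraries. Counts refer to isoform and position pairs unless called distinct sites. The code was tested on simulated data. Named genes were those the study examined, the 5 most edited, the 8 and 4 smallest p against enzyme-only with libraries not overlapping, the 5 in each direction for 3′ UTR minus CDS, 8 UGCAUG occurrences, and list members. Of the ranking by p, 1 gene is not reported here. Members, lists and tests were chosen with earlier results of these data known. The comparisons share libraries. Alternatives covered pseudocount, filters, scaling, motif window, fraction, length and leaving out each library.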

Additional observations from a re-analysis of the deposited data

Results flagged for a closer look

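Edits on the strand opposite to the transcript, which lie outside the comparisons of long 3′ UTR sites except as a scale, averaged 2648 pairs of isoform and position in RBFOX2-INSCRIBE libraries, with 2656 and 2640. Both values were above those of enzyme-only (1364 and 2340) and buffer-only libraries (2380 and 2370). This is given as a value without an explanation, and the difference was not tested.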

How the results depend on the processing

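Among long 3′ UTRs, the number passing in limma for RBFOX2-INSCRIBE against enzyme-only was 2 as reported, 0 with a pseudocount of 0.1, 29 with 1, 0 and 76 with regions averaging 1 or 10 edited Cs or more, 0 under either scaling, 1 with all 3 groups in the fit, 0 at an edit fraction of at least 0.02, 0 without sites listed in buffer-only, and 0 to 1 leaving out a library (ZNF703, lower, without RBFOX2-INSCRIBE replicate 2). For RBFOX2-INSCRIBE against buffer-only it was 2015, then 1164 with regions averaging 1 or more, 0 scaled to the same total, 402 at a fraction of at least 0.02, and 0 to 290 leaving out a library. For enzyme-only against buffer-only it was 31, then 47 and 18 with pseudocounts of 0.1 and 1, 0 and 12 with averages of 1 and 10 or more, 0 under either scaling, 48 with all 3 groups, 4 at a fraction of at least 0.02, and 0 leaving out a library. For 3′ UTR minus CDS, 70 and 1 passed against buffer-only with RBFOX2-INSCRIBE and enzyme-only at averages of 10 or more, and leaving out a library gave 0 to 34 and 0 to 19; against enzyme-only it was 0 throughout. Over all regions, RBFOX2-INSCRIBE against enzyme-only had 6 calls as reported, 42 with a pseudocount of 1 and 105 at averages of 10 or more. For RBFOX2-INSCRIBE against buffer-only it was 3644 as reported and 2021 at averages of 1 or more. For enzyme-only against buffer-only it was 72 as reported, 114 and 40 with pseudocounts of 0.1 and 1, and 99 with all 3 groups. The cause of these changes was not tested.

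Whether a replicate number marks a slide or day shared between groups is not given in the labels. The labels' replicate field was used, which numbers the enzyme-only libraries titled 2 and 3 as 1 and 2, and the replicate differences of the groups paired in this way correlated at 0.08, 0.02 and -0.01 over 6260 regions. Such a replicate block takes up a residual degree of freedom. With it, 104 of 2953 long 3′ UTRs passed against enzyme-only, where 155 of all 7141 regions did. For RBFOX2-INSCRIBE against buffer-only 1953 of 2753 passed, and 3561 of all 6485 regions. For enzyme-only against buffer-only 7 of 2035 passed, and 24 of all 4961 regions. For 3′ UTR minus CDS, 2 and 23 passed against buffer-only with RBFOX2-INSCRIBE and enzyme-only, and 3 and 38 over all isoforms.

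The ratio of RBFOX2-INSCRIBE to buffer-only site numbers was 4.56 at a fraction of at least 0.02 and 3.72 per opposite-strand edit of the whole library, a wider count than that of long 3′ UTRs alone. The RBFOX2-INSCRIBE minus enzyme-only difference in median 3′ UTR minus CDS editsC went from 0.33 to 0.61 at a fraction of at least 0.02 and 0.46 for 3′ UTRs of at least 2000 nt. At the fraction of at least 0.02 these groups overlapped, with medians of 1.01 and 2.14 against 0.53 and 1.39. Only 40 isoforms with a long 3′ UTR entered the limma fit at that fraction. The RBFOX2-INSCRIBE minus enzyme-only difference of the UGCAUG ratio went from 0.61 to 0.72 with a 25 nt window, 0.44 with 100 nt, 1.30 at a fraction of at least 0.02, 0.82 with 1 expected share for all 3′ UTRs and 0.31 for GCAUG, and it ranged from 0.59 to 0.64 leaving out a library. That of the last to first 2 of 10 bins went from -0.00081 to 0.0245 for the first and last 500 nt and -0.0281 for 3′ UTRs of at least 2000 nt, and took either sign, as did that of the median edit fraction, -0.09 as reported and 0.053 without enzyme-only replicate 2; these groups overlapped. Among differences between groups that did not overlap, enzyme-only minus buffer-only changed sign, 0.0125 for UGCAUG with the expected share by preceding base and -0.00458 for the last to first 2 bins at a fraction of at least 0.02. With regions at 0 in a whole group set to 3 edited Cs there, a check chosen after seeing the data, the median against enzyme-only was 1.1. Depth is unknown, so a C without a listed edit may be unread, and low fractions are limited by it.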
